A study of Homo sapiens with 26 samples.

Results

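Compound 40 was compared with compound 41 in 786-O cells, an established human clear cell renal carcinoma line. Both belong to a set of 4 small molecules that a chemical genetic screen returned as inhibitors of HIF-2a, the hypoxia-inducible factor encoded by EPAS1. The comparison took the 3 arrays whose titles name compound 40 and the 3 whose titles name compound 41, 6 of the 26 Affymetrix U133 Plus 2.0 arrays of the study, and all 54613 probe sets other than controls. The 3 arrays of cells given the DMSO vehicle serve as the background, and their signals are printed with those of the compounds for most genes described. All these arrays hold total RNA of the same line, and the titles carry no allele or transgene for these groups. That titles 40 and 41 mean the compounds follows from the study's text, which names untreated cells, DMSO and 4 compounds. The p-values below take their spread from 8 groups of 3 arrays. Beside compounds 40 and 41 and DMSO, these are untreated cells (titled Blk), compounds 76 and 77, and the PRC3 and WT8 sublines. Neither dose nor exposure time is stated in the sources used here, so an effect of the compound and an effect of its dose or time cannot be told apart. The compounds are known here only by code numbers, so nothing is said of their structures. No label says whether the arrays of 1 group are separate cultures or repeat measurements of 1, and a p-value here measures only how far those arrays spread, possibly for technical reasons.

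Clear cell renal carcinoma cells commonly lack the VHL ubiquitin ligase component, and HIF then accumulates at normal oxygen and drives genes of blood vessel growth, glucose use and cell division. In 786-O cells HIF-2a is the form that is made. A separate sensor pairs the transcription factor NRF2 with its inhibitor KEAP1: reactive chemicals modify KEAP1, NRF2 escapes degradation, and genes for glutathione synthesis, thioredoxin recycling, aldo-keto reductases and heme breakdown are switched on. Genes of the interferon, p53, heat shock and sterol pathways are other common readouts of how cells respond to a chemical.

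Replicates 2 and 3 of compound 40 stood apart from the other deposited columns. In both, all 54613 values were distinct and the median signal with controls was 26.9555 in each, whereas the other columns held 5589 to 7809 distinct values. Their 2% trimmed means were 90.4 and 95.5, against 80.1 to 87.5 in the other 22 replicated arrays. All arrays were therefore quantile normalized together. After that step replicate 2 of compound 40 was the most extreme of the 24 replicated arrays for 19.4% of probe sets and replicate 3 for 5.04%. WT8 replicate 3, deposited like the other arrays, was the most extreme as often as replicate 2, at 19.4%. The median SD between arrays of a group was 0.283 log2 units with compound 40 and 0.214 with compound 41. The ratio of 3' to 5' control probes for ACTB, a sign of RNA integrity, was 1.32 and 1.25 in those replicates, 1.09 in replicate 1 of compound 40 and 0.977 to 1.11 with compound 41. The same ratio for GAPDH went the other way, at 0.885 and 0.930 in those replicates, 0.971 in replicate 1 and 0.961 to 0.971 with compound 41. Replicate 1 of compound 40 is the array made like those of compound 41, so the difference it gives alone is printed for the called genes described below whose difference it moved by over 1.5 times, and for some others. The part of the deposited form in any result was not tested. Markers of the renal epithelial line summed to 12009 to 13346 signal units with compound 40 and 12404 to 13217 with compound 41, with VIM, PAX8, CA12, KRT8 and KRT18 as the bright members and CUBN and MME at the floor of 20 in both. Fibroblast markers summed to 129 to 224 and 206 to 209, endothelial markers to 134 to 144 and 121 to 171, and leukocyte markers to 34.0 to 54.5 and 19.0 to 27.9.

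Few genes passed the test between the compounds, and most of those were higher with compound 41. Higher with compound 41 were THBS1, the matricellular protein thrombospondin 1, with the largest difference of any called gene, and MYL9, a myosin light chain, UCP2, a carrier of the mitochondrial inner membrane, and HMOX1, the enzyme that breaks down heme. TNFRSF9, the costimulatory receptor 4-1BB, and SYTL2 and SYTL3, Rab27-binding proteins of vesicle traffic, led the bright genes that were higher with compound 40. With limma across 24 arrays, 207 of 35013 probe sets (0.591%) had a Benjamini-Hochberg adjusted p below 0.05 and are named called below, 65 higher with compound 40 (0.186%) and 142 higher with compound 41 (0.406%). At an unadjusted p below 0.05 there were 4152 (11.9%), or by gene, as defined next, 1975 (13.1%). Taking for each gene its brightest probe set, 110 of 15124 genes were called (0.727%), 27 higher with compound 40 (0.179%) and 83 higher with compound 41 (0.549%). Of the called probe sets, 11 name several genes and stand for no gene in these counts. Their differences ran from -2.41 (limma adjusted p = 9.32e-06) to 1.93 (limma adjusted p = 0.0458). The probe set at -2.41 was called in all 6 fits that left out 1 of the 6 arrays. Fold changes of the called genes, here always 2 to the power of the log2 difference, ran from 1.33 to 7.18, and the median size was 0.96 log2 units. The median over all genes was -0.01.

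The count depended on the arrays fitted and on the scaling. When the 6 arrays were fitted alone, limma called 0 probe sets, with 3511 at an unadjusted p below 0.05, so the calls rest on the spread shared with the other 18 arrays. The split of the calls also moved with the scaling: 31.4% of called probe sets were higher with compound 40 after quantile normalization, 14.9% (18 of 121) after median scaling, and 61.8% (123 of 199) with the signals as deposited, whose median difference was 0.11. All named genes that were called kept their direction under both scalings.

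**Figure D1:**
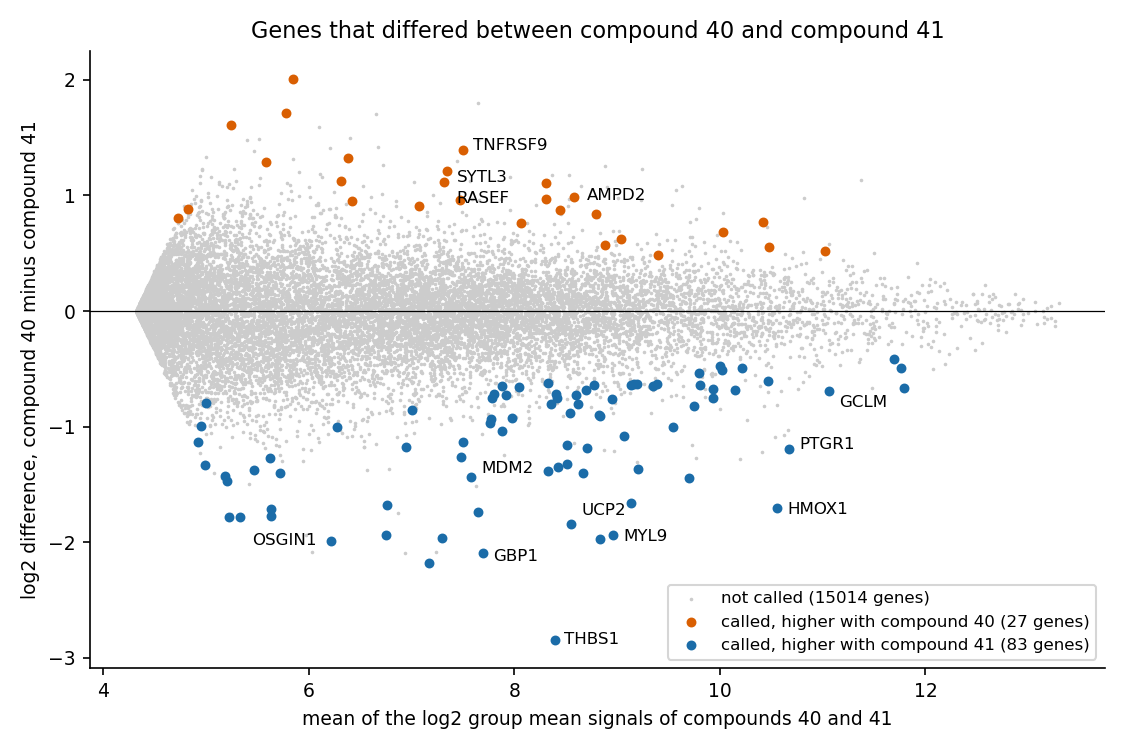
Log2 difference of compound 40 minus compound 41 (y axis) against the mean of the log2 group means (x axis) for 15124 genes, 1 point a gene. Blue points are the 83 called genes higher with compound 41, orange points the 27 higher with compound 40, and the other genes are grey; THBS1 lies lowest at -2.84, and the wedge at the left is set by the floor of 20.

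Among the 110 called genes, the 3 arrays of one compound lay wholly above the 3 of the other in 109, UBE2E1 being the exception. This separation was common in the table as a whole, at 16.2% of all genes. For the 83 genes higher with compound 41, the mean of compound 40 was nearer to DMSO in 62. For the 27 genes higher with compound 40, compound 40 was again nearer to DMSO in 20. Both compounds share the DMSO arrays only as printed background, and DMSO has no part in the contrast.

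With replicate 1 of compound 40 set alone against the 3 compound 41 arrays, the median size over the 110 called genes was 0.79, against 1.01 with replicates 2 and 3 alone. The sign could hardly differ, since 109 of the 110 were already free of overlap. By that single array 5 genes were called, of which OSGIN1 (limma adjusted p = 3.86e-04, with that array at the floor of 20), MYL9 (0.0114), PPME1 (0.0228) and RASEF (0.0386) were also called with all arrays. In 19 of the 110 called genes (17.3%) both later compound 40 arrays lay outside the range of the other 22 arrays, against 3.33% of all genes. For probe sets it was 33 of 207 (15.9%), against 2.86%. GBP1, LPP, MPC1, PSMD1 and UBE2E1 are among the 19 genes. Calling picks genes where compound 40 lies far from compound 41, so the selection itself raises this share. No other pair of arrays was looked at in this way. UBE2E1 gave -0.20 with replicate 1 alone, against -0.69 with all arrays.

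**Figure D2:**
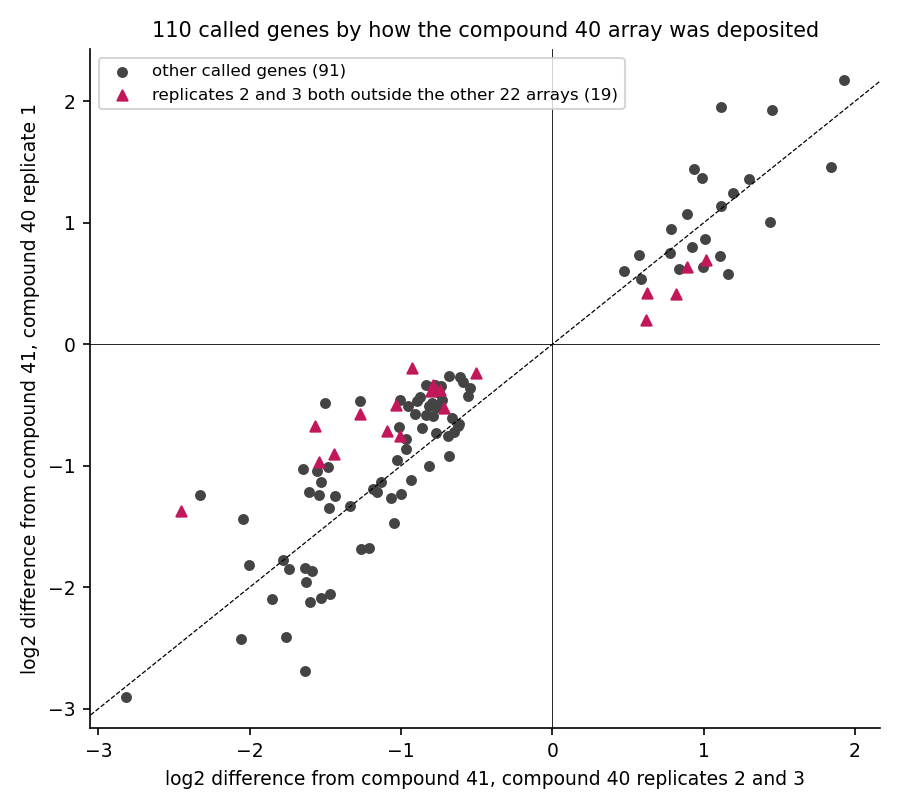
Log2 difference from compound 41 for the 110 called genes, computed from compound 40 replicates 2 and 3 (x axis) and from replicate 1 alone (y axis), with the line of equality dashed. Magenta triangles are the 19 genes for which replicates 2 and 3 both lay outside the other 22 arrays; the median size is 1.01 on the x axis and 0.79 on the y axis.

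The genes least tied to any 1 array were those called in each of the 6 fits that left out 1 of the 6 arrays. There were 14, and they are named here after their values were seen: MYL9, UCP2, PRSS53, HMOX1, CYP4F11, PPDPF, MDM2, LPP, KCNE4, PPME1 and GCLM were higher with compound 41, and AMPD2, RASEF and SYTL3 were higher with compound 40. By its brightest probe set, each other called gene lost the call without at least 1 array. Of the 14, PRSS53 and KCNE4 read the floor of 20 in all 3 compound 40 arrays, and CYP4F11 read it in replicates 2 and 3. The floor holds down the spread between those arrays. Of the 37 called genes named by rule, 28 were still called without compound 40 replicate 1, 14 without replicate 2 and 16 without replicate 3, and 15, 15 and 12 without replicates 1, 2 and 3 of compound 41.

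HMOX1, whose product opens the heme ring and releases iron and carbon monoxide, read above DMSO in all 6 arrays and was higher with compound 41. Its signal was 725, 1238 and 568 in replicates 1, 2 and 3 of compound 40, and 3585, 2543 and 1925 with compound 41. DMSO arrays read 109.5, 77.8 and 84.6. Every compound 41 array was above every compound 40 array. The difference was -1.70 log2 units (SE 0.27, limma adjusted p = 0.00393, 3.25-fold), and -1.84 with replicate 1 of compound 40 alone. Of the 8 measured genes of heme metabolism HMOX1 was the only one called, while 0.549% of all genes were called higher with compound 41. BLVRB, biliverdin reductase B, read 1064 ± 188 with compound 40 and 1194 ± 86.9 with compound 41 (SD, n = 3). The interval of its log2 difference was -0.77 to 0.41, and DMSO read 382 ± 70.9.

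Targets of NRF2 other than HMOX1 were split. Of 31 measured genes, 5 were called and all 5 were higher with compound 41 (background 0.549%). In 21 the mean was lower and in 10 higher with compound 40, and the median difference was -0.30, against -0.01 over all genes. Both compounds stood above DMSO, with medians of 0.72 for compound 40 and 0.77 for compound 41. Arrays did not overlap in 14 genes higher with compound 41 (background 9.28%) and in 2 higher with compound 40 (background 6.95%). These counts take each gene by its brightest probe set.

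Among the reductases, 2 of 8 were called, both higher with compound 41 (background 0.549%). PTGR1, which reduces prostaglandins and lipid aldehydes, read 1067, 1338 and 857 with compound 40 and 2537, 2179 and 2626 with compound 41, with DMSO at 453 ± 71.3. The groups did not overlap, and the fold was 2.28 (limma adjusted p = 0.00835; all 3 of its probe sets were called), although the call ended without compound 40 replicate 3 or compound 41 replicate 3. AKR1C2, an aldo-keto reductase that acts on steroids, read 225, 348 and 262 with compound 40 and 577, 591 and 713 with compound 41, and 52.0 ± 12.6 with DMSO. The fold was also 2.28 (limma adjusted p = 0.046), and this call ended whichever of the 6 arrays was left out. Its neighbours in the family were not called: AKR1C3 read 1129 ± 78.9 against 2336 ± 458 (limma adjusted p = 0.355) and AKR1C1 372 ± 127 against 667 ± 166 (limma adjusted p = 0.29), with DMSO at 121 ± 33.0 and 66.3 ± 7.63. The AKR1C genes are close copies, so their probe sets may share signal. NQO1, the quinone reductase most used as an NRF2 readout, read 4532 ± 326 with compound 40 and 5657 ± 189.7 with compound 41, both far above the 1804 ± 26.6 of DMSO, and the interval of the log2 difference was -0.58 to -0.06 (limma adjusted p = 0.292).

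Of the 11 genes of glutathione and cystine, the 2 subunits of the enzyme that starts glutathione synthesis were called (background 0.549%). GCLM, the modifier subunit, read 1938, 1480.4 and 1645 with compound 40, 2740.1, 2730.1 and 2637 with compound 41 and 918, 1142 and 983 with DMSO. The 3 groups formed 3 separate steps, and the fold between the compounds was 1.61 (log2 difference -0.69, SE 0.11, limma adjusted p = 0.00492). GCLC, the catalytic subunit, read 338, 392 and 407 against 690.4, 542 and 704, with DMSO at 221 ± 19.7, a 1.70-fold difference (limma adjusted p = 0.0156) whose call ended without replicate 1 or 3 of compound 41 and with the signals as deposited; GCLM lost the call under median scaling. SLC7A11, the cystine importer, read 796, 942 and 929.95 against 1852, 2316 and 2073, with DMSO at 341 ± 129. By this, its brightest probe set, the difference of -1.22 was not called (95% interval -1.84 to -0.61, limma adjusted p = 0.0606). Another of its probe sets was called, at -1.42 (limma adjusted p = 0.0448), in 1 of the 6 fits leaving out 1 array. CHAC1, which degrades glutathione, read 267, 75.2 and 45.5 with compound 40 and 56.4, 60.4 and 39.0 with compound 41, so its mean difference came from compound 40 replicate 1; DMSO replicate 1 was also high, at 220.0.

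The list of the thioredoxin system had 1 call in 7 (background 0.549%), and it was OSGIN1. This oxidative stress-induced growth inhibitor was put on the list as an NRF2 target and is no thioredoxin gene. The other 6 had 0 calls by limma, with 4 at an unadjusted p below 0.05. OSGIN1 read 20.0, 83.9 and 20.6 with compound 40, 98.2, 184 and 119 with compound 41 and the floor of 20 in all 3 DMSO arrays. With 1 compound 40 array at the floor and another just above it, the fitted fold of 3.96 (limma adjusted p = 0.0103) depends on where the floor is set. The log2 difference was -1.12 with a floor of 50, still called, and -2.11 with a floor of 1, where the call ended (limma adjusted p = 0.0704). The call was lost without compound 40 replicate 3 or compound 41 replicate 2. Replicate 1 of compound 40 alone gave -2.69, which is only a bound because that array was at the floor. TXNRD1, thioredoxin reductase, read 3988 ± 309.7 against 5480.5 ± 114 (limma adjusted p = 0.166), with DMSO at 2286 ± 301, and PRDX1, a peroxiredoxin, 6680.3 ± 536 against 6184 ± 105, an interval of -0.06 to 0.27, with DMSO at 5661 ± 246. The 5 NADPH-producing genes gave 0 calls by limma, 0 at an unadjusted p below 0.05 and a median of 0.11: PGD of the pentose phosphate pathway read 1476 ± 75.01 with compound 40 and 1365 ± 14.5 with compound 41, with DMSO at 712. A dimmer probe set of TKT, transketolase, was called at -1.08 (limma adjusted p = 0.0132, called in 4 of the 6 fits leaving out 1 array), opposite to the 0.19 of its brightest probe set. Regulators of the pathway were close between the compounds, with NFE2L2, the gene of NRF2 itself, at an interval of -0.29 to 0.33 and KEAP1 at -0.43 to 0.19.

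NRF2 acts through the antioxidant response element. Its core letters, TGACNNNGC on either strand, were looked for in RefSeq promoters (GRCh38.p14, 250 bases before to 50 after each gene's start), a search chosen after results were seen. The table held a promoter for 23 of the 32 NRF2 targets measured (HMOX1 included), and 6 of these 23 (26.1%) held the letters, against 3702 of 27305 promoters in all (13.6%). The stretches below show the match in capitals for a gene that was called and for one that was not, so the letters alone did not separate them; a match is a description and not a bound site. GCLM lies on the minus strand at chr1:93909446-93909474, 34 bases before the start, and TXNRD1 on the plus strand at chr12:104215670-104215698, 99 bases before it.
GCLM: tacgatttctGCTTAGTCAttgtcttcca
TXNRD1: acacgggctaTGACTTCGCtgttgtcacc

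Of 27 measured HIF-2a targets limma called 0, with 3 at an unadjusted p below 0.05, and 17 had a higher mean with compound 40; the median difference was 0.19. It was 0.39 with replicate 1 of compound 40 alone and -0.04 with replicates 2 and 3 alone, so its sign rested on replicate 1. Both compounds lay below DMSO, with medians of -0.28 and -0.24. VEGFA, the angiogenic growth factor, read 731, 368 and 379.6 with compound 40, 293, 263 and 269.8 with compound 41 and 1436, 1139.9 and 926 with DMSO. The compounds did not overlap, but the difference of 0.76 (95% interval 0.16 to 1.37) was not called (limma adjusted p = 0.277), and replicate 1 alone gave 1.41. CCND1, cyclin D1, read 553, 322 and 321 against 417, 366 and 288, an interval of -0.27 to 0.52. CA12, a membrane carbonic anhydrase, read 1277 ± 143 against 885 ± 28.1 (limma adjusted p = 0.213), and SLC2A1, the glucose transporter GLUT1, 659 ± 147 against 696 ± 145. IGFBP3, which binds insulin-like growth factors, read 1545, 642 and 1131 against 949, 269 and 839.9, and in both groups replicate 2 was the lowest. DMSO read 766 ± 167 for CCND1, 1646 ± 296 for CA12, 890.3 ± 114 for SLC2A1 and 2071 ± 634 for IGFBP3.

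ANGPTL4, an inhibitor of lipoprotein lipase that HIF and fatty acid sensors both induce, went the other way. Its brighter probe set read 24.1, 108 and 61.4 with compound 40, 213, 268 and 218 with compound 41 and 20.0, 73.4 and 20.0 with DMSO. The difference of -2.09 was not called (limma adjusted p = 0.131). Its other probe set was called, with a difference of -2.67 (SE 0.46, limma adjusted p = 0.00642) that held in all 6 fits leaving out 1 array. That probe set is named here after its value was seen.

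EPAS1, the gene of HIF-2a, read 535, 418 and 386 with compound 40, 542, 250.1 and 314 with compound 41 and 556, 402 and 434 with DMSO. The ranges overlapped fully, and the difference was 0.34 (SE 0.24, 95% interval -0.15 to 0.83, limma adjusted p = 0.625). The arrays measure mRNA, so they hold no value for HIF-2a protein. ARNT, the partner subunit, had an interval of -1.08 to 0.51 and VHL one of -0.58 to 0.53 at signals near 50; the probe set of HIF1A was too dim to be kept. FTL, the ferritin light chain whose translation is set by iron, read 9541 ± 223 against 10117 ± 88.0, and TFRC, the transferrin receptor, 3142 ± 263 against 3197 ± 355, with intervals of -0.32 to 0.15 and -0.55 to 0.50 and DMSO at 7722 ± 185 and 1765 ± 143. Of the 10 genes of iron regulation limma called 0, with 1 at an unadjusted p below 0.05.

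**Figure D3:**
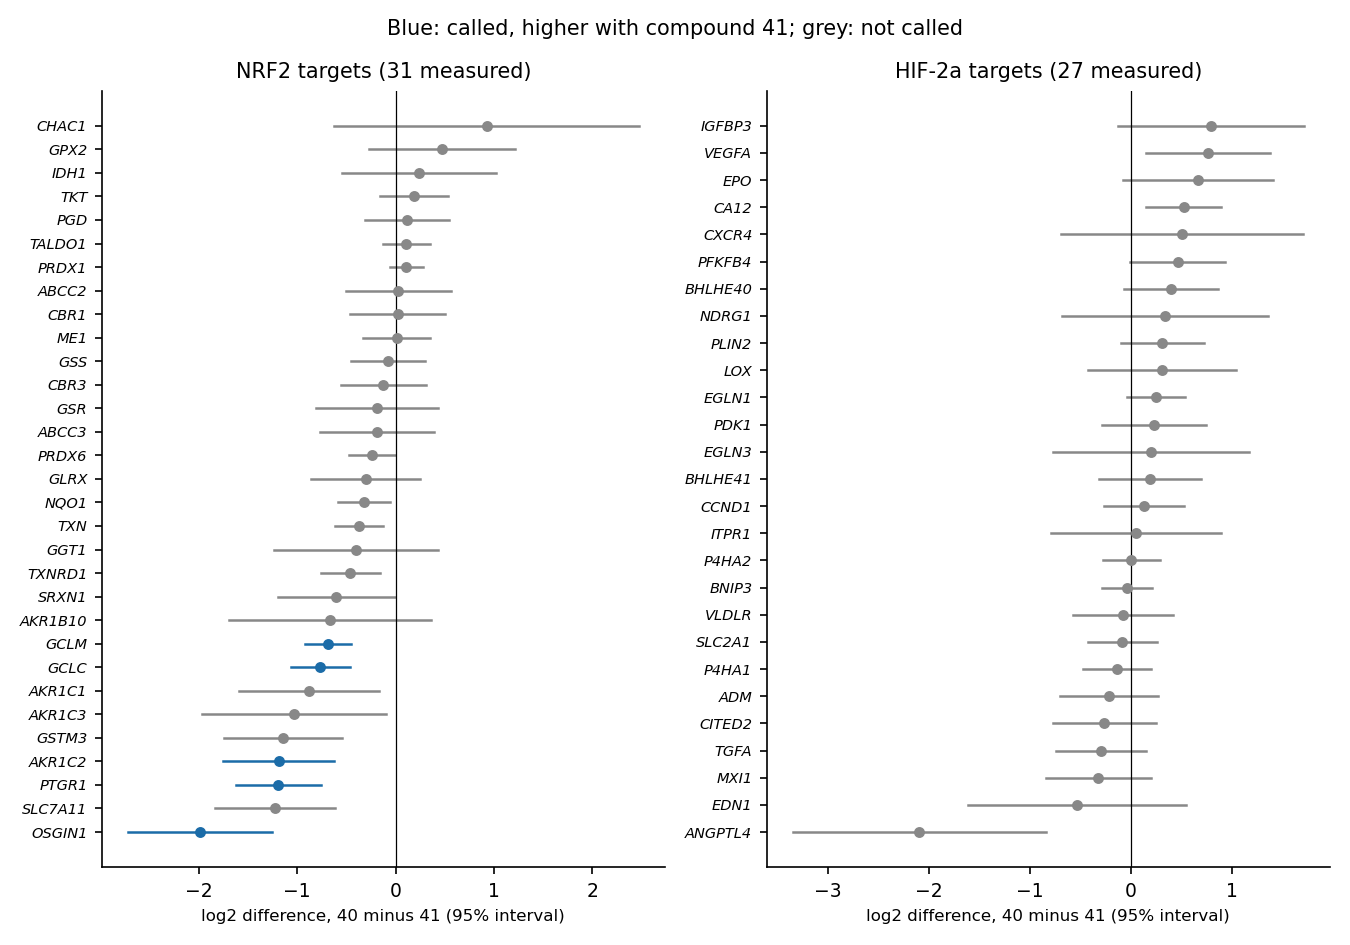
Log2 difference of compound 40 minus compound 41 (x axis, points) with its 95% interval (bars) for 31 measured NRF2 targets (left) and 27 measured HIF-2a targets (right), each sorted by difference. Blue marks the 5 NRF2 targets called higher with compound 41, from OSGIN1 at -1.99 to GCLM at -0.69; no HIF-2a target is called, and ANGPTL4 lies apart at -2.09 with a wide interval.

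Interferon response genes mostly had lower means with compound 40. Of 19 measured, 3 were called, all higher with compound 41 (background 0.549%), and 17 had the lower mean with compound 40. The median difference was -0.85, and -0.99 with replicate 1 of compound 40 alone. Arrays did not overlap in 8 genes higher with compound 41 and 0 higher with compound 40 (background 9.28% and 6.95%). The 3 are IFIT1, IFIT2 and IFIT3, RNA-binding proteins that interferon induces against viral RNA. IFIT3 read 231, 308 and 392 with compound 40, 581, 1273 and 1200.02 with compound 41 and 332, 595 and 561 with DMSO, a 3.17-fold difference (limma adjusted p = 0.0226). IFIT2 read 91.9, 127 and 105 against 237, 391 and 489.8, 3.34-fold (limma adjusted p = 0.0253), with DMSO at 111 ± 53.1. IFIT1 read 197, 222 and 314 against 411, 627 and 984, 2.65-fold (limma adjusted p = 0.0489), with DMSO at 365 ± 104. Compound 41 replicate 1 was the lowest of its group for all 3. For IFIT2 and IFIT3 the call ended in 4 of the 6 fits that left out 1 array, among them both without compound 40 replicate 2 and without compound 41 replicate 3, and for IFIT1 in all but the fit without compound 41 replicate 1; IFIT1 and IFIT3 were also not called under median scaling or with the signals as deposited. ISG15, a ubiquitin-like modifier, read 424, 633 and 611 against 1007, 1362 and 1698 and was not called (limma adjusted p = 0.16), with DMSO at 807 ± 321. Against DMSO the list's median was -0.57 with compound 40 and 0.03 with compound 41. OAS3, a sensor of double-stranded RNA, differed from the rest, at 203 ± 42.8 and 173 ± 20.3, with both below the 360.2 of DMSO. GBP1 and DDX60, which interferon also induces but which were not on the list, were called: GBP1 read 158, 55.2 and 100.4 against 373, 479 and 379.8 (4.27-fold, limma adjusted p = 0.0108) and DDX60 120.5, 33.0 and 97.4 against 247, 233 and 401 (3.90-fold, limma adjusted p = 0.0286). DMSO read 177 ± 63.0 and 201 ± 38.6, and replicate 1 of compound 40 alone gave -1.37 for GBP1, against -2.09 with all arrays, and -1.24 for DDX60, against -1.96. For both, compound 40 replicate 2 was the lowest array, and without it neither was called; leaving out compound 41 replicate 2 also ended both calls, and leaving out either of the other compound 41 arrays ended that of DDX60.

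Interferon signals reach these genes through the interferon-stimulated response element. Its letters, GAAANNGAAA on either strand, were in 11 of the 16 interferon promoters that the RefSeq table held (68.8%) and in 996 of 27305 in all (3.65%). The list holds interferon-stimulated genes, many of them known for this element, so the share describes the list and not these arrays. The stretches below, all on the plus strand with the match in capitals, are those of IFIT1 (chr10:89392510-89392539) and IFIT3 (chr10:89327865-89327894), which were called, and of ISG15 (chr1:1013380-1013409) and IFI44 (chr1:78649761-78649790), which were not. They begin the match 103, 122, 107 and 18 bases before the start. IFIT2, which was also called, gave no match, but the RefSeq table held promoters for only 16 of the 19 measured members. Whether that of IFIT2 was among them was not recorded, so nothing is concluded from its missing match.
IFIT1: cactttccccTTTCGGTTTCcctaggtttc
IFIT3: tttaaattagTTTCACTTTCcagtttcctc
ISG15: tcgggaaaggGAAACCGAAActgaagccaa
IFI44: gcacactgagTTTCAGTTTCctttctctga

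Targets of p53 mostly had higher means with compound 41. Of 18 measured, 2 were called higher with compound 41 (background 0.549%) and 17 had the lower mean with compound 40; the median difference was -0.64 (-0.45 with replicate 1 of compound 40 alone). Against DMSO the median was 0.02 with compound 40 and 0.70 with compound 41. Arrays did not overlap in 9 genes higher with compound 41 (background 9.28%). MDM2, the ubiquitin ligase that p53 induces and that degrades it, read 148, 60.1 and 154 with compound 40, 303, 300.4 and 299.8 with compound 41 and 164, 145 and 149 with DMSO. The fold was 2.71 (limma adjusted p = 0.0108). Replicate 2 of compound 40 was low, and without it MDM2 was still called; replicate 1 alone gave -1.03, which was not called. RRM2B, a ribonucleotide reductase subunit for DNA repair, read 371, 145 and 231 against 681, 382 and 534, 2.24-fold (limma adjusted p = 0.0356), with DMSO at 258 ± 48.4. It gave -0.48 with replicate 1 of compound 40 alone, against -1.16 with all arrays, and lost the call without replicate 2 or 3 of compound 40 or replicate 1 or 3 of compound 41. CDKN1A, the cell cycle inhibitor p21, read 925, 515 and 844 against 1839, 926 and 1383, with DMSO at 580.4, 203 and 335, and was not called (limma adjusted p = 0.365). GDF15, a secreted stress cytokine, read 117, 134 and 90.4 against 529, 269.7 and 229 (limma adjusted p = 0.164). PHLDA3, a repressor of AKT signalling, had a tight but uncalled difference, at 165 ± 12.01 against 267 ± 10.9 (limma adjusted p = 0.0826). DMSO read 79.1 ± 28.9 for GDF15 and 164 ± 32.4 for PHLDA3.

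All 14 measured genes of cholesterol synthesis had the higher mean with compound 40, with a median of 0.63, yet limma called 0 of them, with 8 at an unadjusted p below 0.05 (13.1% of all genes). Their arrays did not overlap in 9 (background 6.95%). The list's median against DMSO was -0.11 with compound 40 and -0.66 with compound 41. SQLE, squalene epoxidase, read 2093, 1485 and 1852 with compound 40, 1223, 888 and 1161 with compound 41 and 1830.3, 1579 and 1631 with DMSO; its difference of 0.73 had an interval of 0.31 to 1.147 (limma adjusted p = 0.111) and passed with the signals as deposited, with array weights and with the replicate number as a block (limma adjusted p = 0.0323). IDI1, isopentenyl diphosphate isomerase, read 1069.7, 995 and 991 against 539, 489 and 592 (limma adjusted p = 0.127). HMGCS1, the synthase at the head of the pathway, read 649, 199 and 133 against 139, 218 and 156, so its higher mean with compound 40 came from replicate 1 alone. DMSO read 821 ± 164 for IDI1 and 473 ± 68.1 for HMGCS1. Replicate 1 of compound 40 was higher than the other compound 40 arrays also in the list as a whole, whose median was 0.99 with that array and 0.50 without it.

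Of 17 listed heat shock genes 14 were measured, and 2 of these were called, both higher with compound 41 (background 0.549%). Probe sets that name several genes stand for no gene here, so members read only by such probe sets are not counted. DNAJB1, a co-chaperone of HSP70, read 739, 841 and 718 against 1678, 990.1 and 1087, with DMSO at 698 ± 22.6, a 1.59-fold difference (limma adjusted p = 0.0319). HSPA4L, an HSP110-type exchange factor, read 303, 224 and 219 against 477, 433 and 383, 1.75-fold (limma adjusted p = 0.0456), with DMSO at 324 ± 53.6; replicate 1 of compound 40 alone gave -0.50, against -0.80 with all arrays. Neither call held without replicate 2 or 3 of compound 40 or replicate 1 or 3 of compound 41, under median scaling or with the signals as deposited. HSPH1 read 951, 1229 and 1156 against 1794, 1819.95 and 1786 and was not called (limma adjusted p = 0.091; DMSO 1221 ± 126), while HSPD1, the mitochondrial chaperonin, had an interval of -0.20 to 0.24. The list's median was -0.30, 12 of 14 means were lower with compound 40, and arrays did not overlap in 9 genes higher with compound 41 (background 9.28%). A dimmer probe set of HSP90AA1, a cytosolic HSP90, was also called, at -0.61 (limma adjusted p = 0.0165). CRYAB, a small heat shock protein, was at the floor of 20 in all 3 compound 41 arrays and read 41.4, 31.2 and 40.7 with compound 40, at least 1.87-fold higher (limma adjusted p = 0.134), with DMSO at 39.1 ± 7.55.

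**Figure D4:**
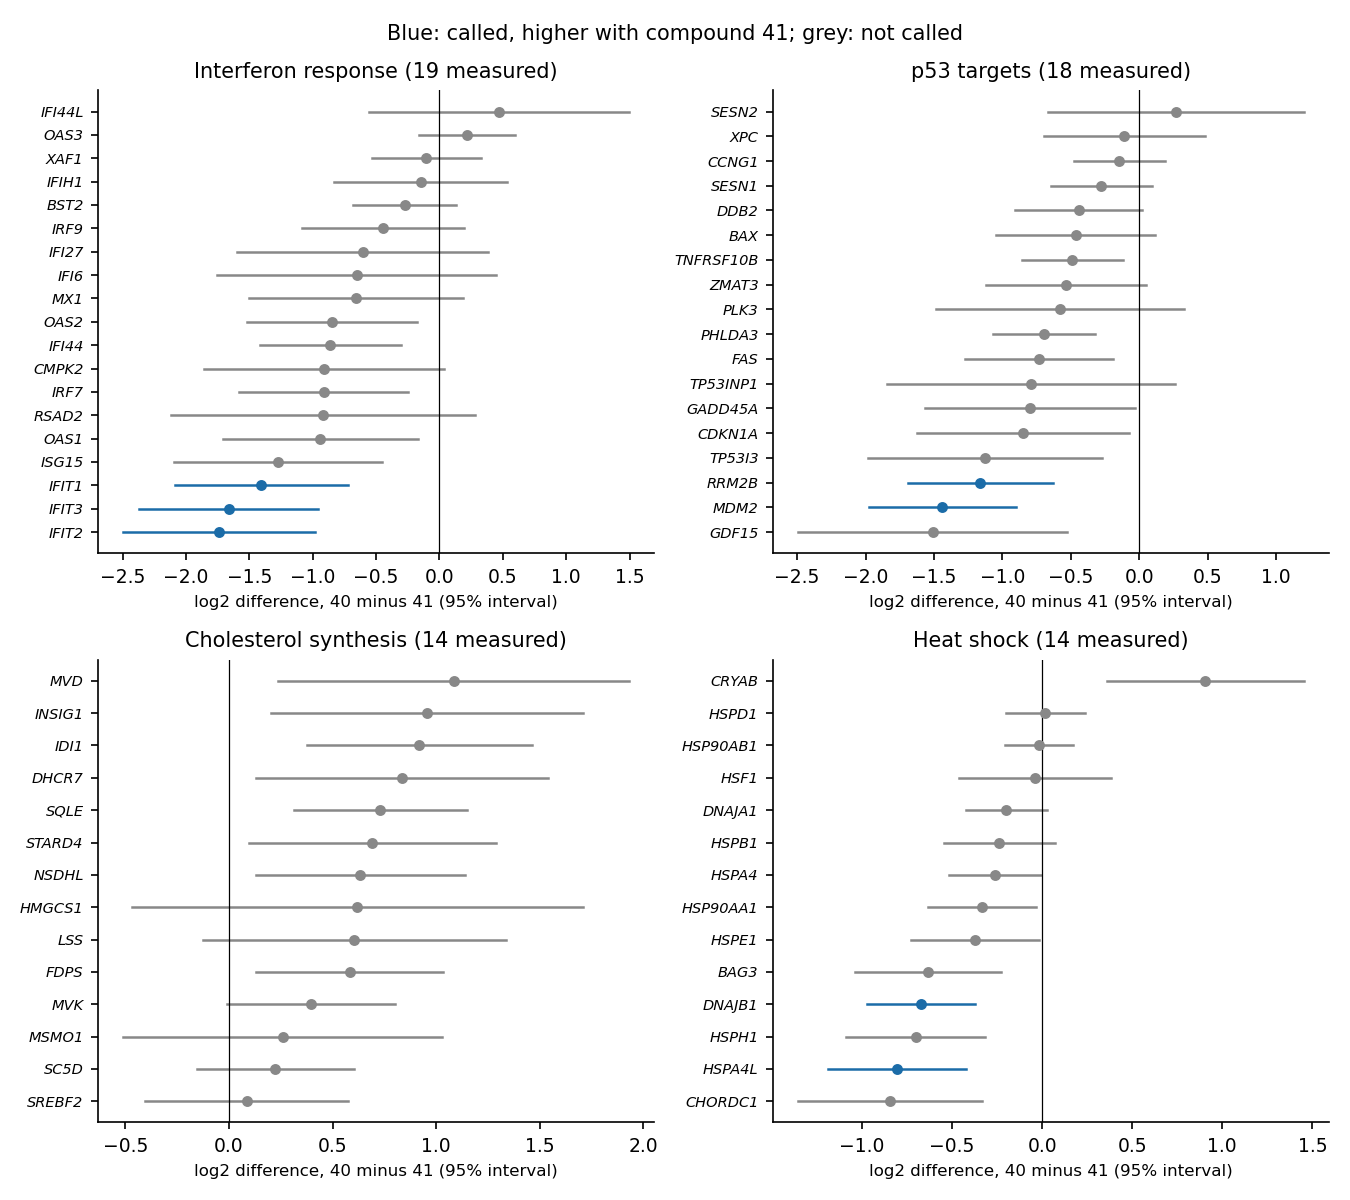
Log2 difference of compound 40 minus compound 41 (x axis, points) with its 95% interval (bars) for 4 gene lists, each sorted by difference. Blue marks called genes, 3 of 19 interferon response genes, 2 of 18 p53 targets and 2 of 14 heat shock genes; all 14 cholesterol synthesis points lie right of 0 and none is called.

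Of 22 mitosis genes 20 had the higher mean with compound 40, with a median of 0.35 (0.16 with replicate 1 alone), and limma called 0, with 11 at an unadjusted p below 0.05 (13.1% of all genes). CENPF, a kinetochore protein, read 812, 1149 and 1023 against 756, 724 and 595 (limma adjusted p = 0.129), with DMSO at 985 ± 49.6, whereas TOP2A, UBE2C and CCNB2 had intervals of -0.34 to 0.19, -0.25 to 0.32 and -0.27 to 0.27. The 23 genes of DNA replication gave 0 calls by limma, 6 at an unadjusted p below 0.05 and a median of 0.19; MCM6, a helicase subunit, had the largest difference, at 1007, 977 and 1269 against 523, 817 and 587 (limma adjusted p = 0.119), with DMSO at 1079 ± 205. All 22 proteasome subunits had the higher mean with compound 40, but their median was 0.11, and -0.05 with replicate 1 alone. PSMD1, a scaffold of the regulatory cap, was the only one called (background 0.179%). It read 1569, 1931 and 1695 against 1111, 1155 and 1261 (1.47-fold, limma adjusted p = 0.0253), with DMSO at 1319 ± 125. The call ended without replicate 2 or 3 of compound 40 or any 1 array of compound 41, and under median scaling.

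The lists of autophagy, immediate early genes and extracellular matrix, with 17, 16 and 19 genes measured, also had 1 call each. Each was higher with compound 41 (background 0.549%). BECN1, which starts autophagosome formation, read 365, 294 and 324 against 551, 464 and 559, 1.60-fold higher with compound 41 (limma adjusted p = 0.0194), with DMSO at 423 ± 31.1. KLF4, an immediate early transcription factor, read 77.9, 94.8 and 69.7 against 128, 194 and 239.9, 2.26-fold (limma adjusted p = 0.022), with DMSO at 106 ± 0.463. THBS1, of the matrix list, read 119, 95.9 and 167 with compound 40, 803, 1047 and 837 with compound 41 and 89.9, 343 and 206 with DMSO. Its 7.18-fold difference was the highest of any called gene, and 5 of its 6 probe sets had the same direction, but its SE was 0.64 (limma adjusted p = 0.043) and the call ended whichever of the 6 arrays was left out. Replicate 1 of compound 40 alone gave -2.90. The call of BECN1 ended without replicate 2 or 3 of compound 40 or replicate 1 or 3 of compound 41, and that of KLF4 without compound 40 replicate 3 or replicate 2 or 3 of compound 41. The lists of the ATF4 pathway, endoplasmic reticulum chaperones, NF-kB, glycolysis, fatty acid synthesis, metallothioneins, adhesion, the aryl hydrocarbon receptor, the respiratory chain, translation initiation, semaphorins and G1 regulators held 0 genes called by limma, with 2 to 5 of each list at an unadjusted p below 0.05 (13.1% of all genes). That 0 is by each gene's brightest probe set. Dimmer probe sets of 4 members were called: SEMA6A, a transmembrane semaphorin, at 2.07 (limma adjusted p = 0.0194), HSP90B1, the HSP90 of the endoplasmic reticulum, at 0.83 (0.0323), XPOT, which exports tRNA from the nucleus, at 0.79 (0.017) and PGK1, a glycolytic kinase, at -0.55 (0.0175). Each held in 1 or 2 of the 6 fits leaving out 1 array.

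MYL9, the regulatory light chain of smooth muscle and non-muscle myosin, had the lowest p of the bright genes higher with compound 41. It read 227, 279 and 258 with compound 40, 853, 952 and 1122 with compound 41 and 194, 228 and 349 with DMSO, so compound 40 lay within the DMSO range and compound 41 above it. The fold was 3.82 (log2 difference -1.93, SE 0.23, limma adjusted p = 1.26e-04). UCP2 read 249.6, 112 and 241 against 959, 555 and 580.4, 3.58-fold (limma adjusted p = 0.00191), with DMSO at 182 ± 38.0. ACKR3, a scavenging receptor for the chemokine CXCL12, read 58.9, 63.7 and 41.8 against 194, 167 and 273, 3.84-fold (limma adjusted p = 0.0132). SLC44A2, a choline transporter-like protein, read 52.8, 56.0 and 73.0 against 199.5, 188 and 190.02, 3.21-fold (limma adjusted p = 0.0175). DMSO read 59.6 ± 21.1 for ACKR3 and 40.2 ± 11.2 for SLC44A2. For MYL9, UCP2 and ACKR3 the compound 40 arrays overlapped the DMSO range.

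EIF5A, a translation factor that carries hypusine, read 162, 167 and 388 with compound 40 and 680.5, 1097 and 849.8 with compound 41, 3.93-fold (limma adjusted p = 0.0226) on 1 of its 3 probe sets, with DMSO at 669 ± 146, so here compound 41 was the nearer to DMSO. The EIF5A call held in 1 of the 6 fits leaving out 1 array, that without compound 40 replicate 3. The call of ACKR3 ended without compound 40 replicate 3 or replicate 1 or 3 of compound 41. That of the brightest SLC44A2 probe set ended without compound 40 replicate 2 or any 1 array of compound 41. The other SLC44A2 probe set was called at -2.09 (limma adjusted p = 0.00116) in all 6 fits leaving out 1 array. Some called genes were at the floor with compound 40. PRSS53, a serine protease, and KCNE4, a potassium channel subunit, read 20 in all 3 compound 40 arrays, so the higher signals with compound 41 have lower bounds only: at least 3.43-fold for PRSS53 (limma adjusted p = 0.00393) and at least 2.19-fold for KCNE4 (limma adjusted p = 0.004).

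**Figure D5:**
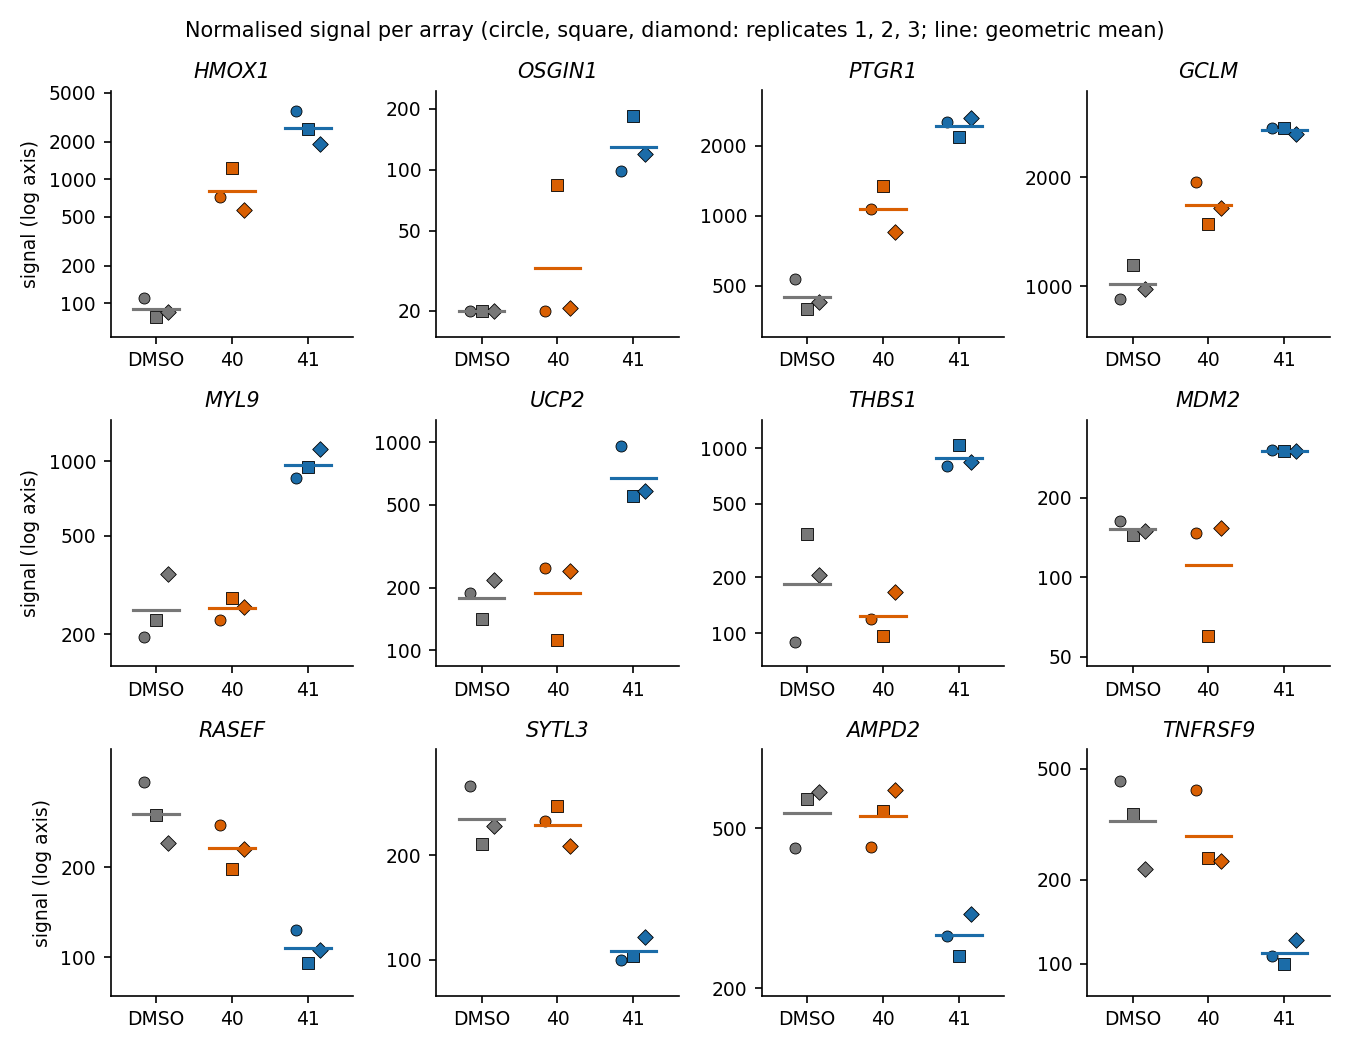
Normalised signal on a log axis for 12 called genes in the 3 arrays each of DMSO (grey), compound 40 (orange) and compound 41 (blue); circles, squares and diamonds are replicates 1, 2 and 3 and lines are geometric means. HMOX1 and GCLM form 3 steps, MYL9 and UCP2 with compound 40 lie near DMSO, and RASEF, SYTL3, AMPD2 and TNFRSF9 lie below both other groups with compound 41.

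The bright genes that were higher with compound 40 were mostly low with compound 41 and near the DMSO level with compound 40. TNFRSF9 read 421, 239 and 233 with compound 40, 107, 99.5 and 122 with compound 41 and 453, 344 and 218 with DMSO, 2.63-fold higher with compound 40 (limma adjusted p = 0.0396). SYTL3 read 251, 277 and 212 against 99.97, 103 and 116, 2.31-fold (limma adjusted p = 0.00303), with DMSO at 259 ± 52.99. Its relative SYTL2 read 135, 138 and 121 against 52.9, 47.9 and 57.3, 2.497-fold (limma adjusted p = 0.0198), with DMSO at 90.8 ± 10.9, between the compounds. RASEF, a Rab-type GTPase with EF hands, read 278, 197 and 231 against 123, 95.5 and 105, with DMSO at 386, 299 and 241, 2.16-fold (limma adjusted p = 0.004). AMPD2, which deaminates AMP, read 448, 550.1 and 623 against 270.04, 241 and 306, 1.98-fold (limma adjusted p = 0.00673), with DMSO at 549 ± 91.1. RASEF and SYTL3 were called under both other scalings and AMPD2 was not called under median scaling.

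DRAM1, a lysosomal membrane protein that p53 induces, read 568, 378 and 424 with compound 40, 252, 135 and 268 with compound 41 and 545 ± 77.2 with DMSO, a 2.15-fold difference (limma adjusted p = 0.0434) opposite in direction to MDM2 and RRM2B. SAPCD2, a regulator of spindle orientation, was 1.96-fold higher with compound 40 (328, 593 and 409 against 166, 226 and 284), and FAM111A, a protease that binds PCNA, was 1.84-fold higher (395, 591 and 438 against 228, 290.5 and 250.02). The long noncoding RNAs SNHG18 and DANCR were 1.95-fold and 1.79-fold higher, at 246 ± 32.7 against 128 ± 30.8 and 592 ± 48.4 against 331 ± 23.5. NAV1, a microtubule-associated protein, was 1.93-fold higher (119 ± 13.6 against 61.4 ± 1.33). MPC1, a subunit of the mitochondrial pyruvate carrier, was 1.88-fold higher at 157, 195 and 199 against 89.0, 89.2 and 116, with DMSO at 107 ± 7.19, so compound 40 was the group that left the DMSO level. DMSO read 535 ± 51.01 for SAPCD2, 478 ± 54.8 for FAM111A, 167 ± 40.3 for SNHG18, 470.3 ± 45.1 for DANCR and 139 ± 10.1 for NAV1. With replicate 1 of compound 40 alone SAPCD2 gave 0.58, against 0.97 with all arrays. Of these 7 genes DRAM1 and DANCR lost the call whichever of the 6 arrays was left out, and FAM111A, MPC1, NAV1, SNHG18 and SAPCD2 lost it without compound 40 replicate 2 and without compound 41 replicate 1, among others; all but DRAM1 lost it under median scaling. TNFRSF9 too lost it whichever array was left out, and the brightest probe set of SYTL2 kept it only without compound 40 replicate 1. Another SYTL2 probe set was called at 1.80 (limma adjusted p = 0.00179) in all 6 fits leaving out 1 array.

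For most genes the fitted difference had an interval within a known bound. The 95% interval lay within a 2-fold change either way for 11913 genes (78.8%), with a median SE of 0.24. This count includes genes with signals held at the floor, such as CUBN and MME. There the interval describes the held signals only and does not bound the difference beneath the floor. How many of the counted genes this concerns was not tested. For the genes not counted, a difference of 2-fold or more between the compounds was within the interval. In them, a p that missed the threshold does not show that the compounds acted alike.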

How the data were processed

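Total RNA was labelled with biotin and hybridised to Affymetrix U133 Plus 2.0 arrays, per the labels. Deposited values are linear signal intensities per probe set, made with MAS5 per the submitters' processing notes; its version is not given in the sources used here, and array signals carry no count or depth, so the number of arrays limits the precision. Here the 26 arrays were quantile normalized without 62 control probe sets, and signals were held between 20 and 16000, the bounds the labels state, before log2. A probe set was kept if its signal reached the median of the array on 3 or more of the 24 replicated arrays. limma 3.58.1 (R 4.3.3; lmFit, eBayes with trend) was fitted on 8 groups with 16 residual degrees of freedom, and the contrast was compound 40 minus compound 41; p-values were Benjamini-Hochberg adjusted over 35013 probe sets. Intervals are 95%. The fit was also run on simulated data with independent noise, and that outcome is not reported here. Those data had no differently made arrays and no effect of replicate number, so the run does not test the fit for these. One pair of compounds was compared. An exact permutation test of 3 against 3 arrays cannot go below 0.10 and was not used.

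Probe sets were named by the platform's annotation (41097 with 1 gene, 41043 of them in RefSeq's table). A gene is its brightest single-gene probe set. Named genes are HIF subunits, up to 12 called genes a direction with the largest differences, no overlap and a group mean above the 70th percentile, up to 4 called members of a list (or its 2 brightest), and all NRF2 and HIF-2a targets. Other genes are members of the lists described. Of the 127 genes the rule names, values are printed for only some, picked with the values known, and a called gene is not reported here. Members and lists were chosen with earlier results of these data known. No set test was run.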

Additional observations from a re-analysis of the deposited data

How the results depend on the processing

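The counts of called probe sets and of called genes, 207 and 110, moved by more than 1.5 times under several settings. They were 121 and 68 with median scaling, 109 and 55 without the variance trend, and 441 and 236 with array weights. Without the filter on low signal 70 genes were called. The 6 arrays alone gave 0 and 0, whether normalized with the others (3511 and 1693 at an unadjusted limma p below 0.05) or on their own (3504 and 1698). Compound 40 replicate 1 against compound 41 gave 17 and 5. Leaving out 1 of the 6 arrays gave 57 to 529 probe sets and 24 to 270 genes, highest without compound 40 replicate 1 and lowest without compound 41 replicate 3. Signals as deposited, a stricter filter and floors of 1 or 50 stayed within 1.5 times. So did leaving out WT8 replicate 3, an array with ACTB 3' to 5' ratio 2.37, which was chosen after seeing the data. No named gene that was called reversed its direction. In the 6 arrays 17.0% to 20.8% of kept probe sets sat at the floor of 20, where a difference can only be bounded.

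Same-numbered arrays of the compounds correlated in their deviations at 0.07, 0.12 and 0.10. Not all were above 0.1, the limit set for pairing, so the main fit did not pair the arrays by number. Each array correlated best with its own number, so missing this limit does not show that the arrays were unpaired. With the replicate number as a block 507 probe sets and 275 genes were called, among them all 110. That fit also called the brightest probe sets of ANGPTL4 (limma adjusted p = 0.0174) and SLC7A11 (0.0208), which the main fit did not call. By it 2 of the 27 HIF-2a targets were called, 1 in each direction, and 7 of the 31 NRF2 targets, all higher with compound 41.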

Other observations

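Some called genes outside the lists act on the actin cytoskeleton; they were picked out after their values were seen, so no test of them as a group applies. CALD1, caldesmon, which binds actin and myosin, read 762, 771 and 719 with compound 40 and 1232, 1350.3 and 1218 with compound 41, 1.69-fold higher with compound 41 (limma adjusted p = 0.018; 2 of its 10 probe sets were called and 7 had this direction), with DMSO at 937.5 ± 49.7. TPM1, a tropomyosin that coats actin filaments, read 3426, 2596 and 2806 against 4036, 4156 and 4169, 1.41-fold (limma adjusted p = 0.0223), and both compounds lay below the DMSO mean of 4780.3. Only 3 of its 6 probe sets had this direction, and replicate 1 of compound 40 alone gave -0.27, against -0.50 with all arrays. COTL1, coactosin-like protein, was 1.77-fold higher with compound 41 (-0.82, and -0.46 with replicate 1 alone) and CDC42EP3, a CDC42 effector, 2.51-fold. CAP2, which binds actin monomers, was 2.40-fold higher, and LPP, of focal adhesions, 2.55-fold, but in both the later compound 40 arrays lay outside the other 22 arrays. LPP read 278, 171 and 204 with compound 40, 597, 514 and 523 with compound 41 and 350.2 as the DMSO mean, so DMSO lay between the compounds.

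Of 20 cytosolic aminoacyl-tRNA synthetase genes, looked for after values were seen, 17 were measured. Limma called 2 (0.727% of all genes), and 8 had an unadjusted p below 0.05 (13.1% of all genes). In 15 the mean was higher with compound 40, and the median difference was 0.25. GARS1, for glycine, read 2643, 2487 and 2355 against 1719, 1714 and 1788 (1.43-fold, limma adjusted p = 0.0487), with DMSO at 2167 ± 193, and lost the call whichever of the 6 arrays was left out. EPRS1, for glutamate and proline, read 1093, 1597 and 1310.3 against 889, 739 and 845 (1.60-fold, limma adjusted p = 0.0178), with DMSO at 902 ± 136, and kept the call in 2 of the 6 fits. For EPRS1 replicates 2 and 3 of compound 40 were the outlying arrays, and replicate 1 alone gave 0.41, against 0.68 with all arrays. LARS1, for leucine, went the other way, at -0.88, and was not called (limma adjusted p = 0.109).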
